A study of Homo sapiens with 6 samples.

Results

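The RGS genes encode regulators of G protein signalling, and 10 of them were followed in U87-MG cells: RGS2, RGS3, RGS4, RGS5, RGS10, RGS12, RGS14, RGS16, RGS17 and RGS20. They were taken by symbol from the table of expression values, in which they make up 10 of 61731 genes and loci. The cells are an established line grown from a human glioblastoma. The 6 libraries of total RNA comprised 3 of negative control cells (genotype label Normal control) and 3 of cells with the genotype label CHRM Knockdown, which the study infected with lentivirus directed at CHRM3, the M3 muscarinic acetylcholine receptor. The text of the study does not say which of its KD sequences these cells carried. Nor does it say whether the cells were a clone, or whether separate cultures were used within a group. The study reports KD3 as the most efficient of its sequences, without tying it to these libraries. The numbers 1 to 3 of the knockdown libraries, taken here as replicates, could also stand for its KD1, KD2 and KD3 sequences, in which case their SD would include differences between sequences. The p-values measure only the spread between these libraries, which may be technical.

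A G protein-coupled receptor loads the alpha subunit of its G protein with GTP, and the signal lasts until the alpha subunit hydrolyses it. RGS proteins bind the loaded alpha subunit through their RGS domain and speed up this hydrolysis, which ends the signal sooner. The M3 receptor acts mainly through alpha subunits of the Gq class. The members fall into the R4 subfamily of mostly small proteins (RGS2, RGS3, RGS4, RGS5 and RGS16), the RZ subfamily (RGS17 and RGS20) and the R12 subfamily (RGS10, RGS12 and RGS14). In bulk RNA, fewer cells with a transcript and less of it per cell cannot be told apart.

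The stretches before the start sites of the 4 members whose change held under another scaling of the libraries are shown here, so that the genes that rose can be set beside the one that fell. They were read from RefSeq on GRCh38.p14, 5′ to 3′ on the strand of the gene, and end before the first annotated exon. Capitals mark the motifs searched on both strands: the TATA box TATAAA, the GC box GGGCGG, the core of the cAMP response element TGACG, the AP-1 site TGANTCA and the E-box CACGTG. The core TGACG also lies within the full element TGACGTCA.
RGS2, chr1:192808789-192809038, plus strand: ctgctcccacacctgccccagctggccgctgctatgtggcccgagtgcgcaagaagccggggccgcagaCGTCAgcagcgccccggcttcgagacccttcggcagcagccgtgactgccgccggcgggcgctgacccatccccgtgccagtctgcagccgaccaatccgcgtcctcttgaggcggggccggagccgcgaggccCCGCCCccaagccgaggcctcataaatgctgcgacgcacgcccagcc
RGS4, chr1:163068621-163068774, plus strand: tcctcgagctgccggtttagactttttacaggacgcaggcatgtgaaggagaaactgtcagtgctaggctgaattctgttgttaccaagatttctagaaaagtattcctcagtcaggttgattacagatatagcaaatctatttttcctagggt
RGS17, chr6:153131283-153131532, minus strand: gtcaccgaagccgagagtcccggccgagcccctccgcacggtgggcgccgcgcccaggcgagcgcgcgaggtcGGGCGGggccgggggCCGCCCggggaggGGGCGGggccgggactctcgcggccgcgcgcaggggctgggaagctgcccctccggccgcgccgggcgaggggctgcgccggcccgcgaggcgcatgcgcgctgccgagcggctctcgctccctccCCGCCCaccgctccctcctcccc
RGS10, chr10:119542720-119542969, minus strand: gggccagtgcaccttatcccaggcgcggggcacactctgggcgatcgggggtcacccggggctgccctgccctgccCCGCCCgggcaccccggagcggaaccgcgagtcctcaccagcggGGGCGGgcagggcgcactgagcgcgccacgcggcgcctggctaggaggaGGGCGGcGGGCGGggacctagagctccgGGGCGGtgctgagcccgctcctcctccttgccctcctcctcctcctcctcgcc

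Windows from 250 bases before to 50 bases after a start were listed for 9 of the 10 members, 22 windows in all, because several members have more than 1 start. The RGS17 window was 82.0% G and C, above 98.7% of all 35116 RefSeq windows, and held 4 GC boxes. The first of the 2 RGS10 windows had 77.3% and 5 GC boxes, and the second had 48.7% and none of the motifs. The RGS2 window had 69.7%, 1 GC box 47 bases before the start and 1 TGACG core 181 bases before it. Of all windows, 45.0% held a GC box and 24.6% a TGACG core. The 4 RGS4 windows were poorer in G and C, from 40.7% to 50.3%, and held no GC box. The printed RGS4 stretch belongs to the first window, which held no motif. The second and the third RGS4 windows each held a TGACG core, as the RGS2 window did, 32 and 139 bases before their starts, and the third also held TATAAA 30 bases before its start, a motif found in 11.5% of all windows. The full element TGACGTCA, present in 1.85% of all windows, was in none of the 22, and neither was the AP-1 site, which 7.71% hold. No motif was held by the windows of all 3 genes that rose. These matches describe the letters and are not sites of binding.

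Expression was given by the authors as TPM, a share of each library per transcript length, so levels of different genes can be compared. TPM keeps no read depth, and no counting error can be given. The targeted gene was examined first. CHRM3 (ENSG00000133019) was at 0.02, 0.09 and 0.13 TPM in control replicates 1, 2 and 3 and at 0.13, 0.01 and 0.02 TPM in knockdown replicates 1, 2 and 3, near the rounding step. A fall of CHRM3 was thus not detectable (exact two-sided permutation test, p = 0.8, where 3 against 3 libraries allow no p below 0.1), and the directions are those of the libraries labelled knockdown. The study checked the knockdown by other assays, which are not analysed here. Between 13518 and 13664 genes reached 1 TPM in a library. Mitochondrial transcripts took 5.32% to 5.47% of TPM in the controls and 4.41% to 4.87% in the knockdown libraries, and their part in the results was not tested. Of 9 glioma and astroglial markers 6 were tested, of which VIM, NES and SPARC were higher and CD44 and TNC lower at an adjusted p under 0.05 in limma, while GFAP averaged 1.16 and 1.13 TPM in the control and knockdown libraries and SOX2, S100B and OLIG2 stayed under 1 TPM in every library. Of 7 endothelial markers 6 stayed under 1 TPM in every library, and KDR fell from 3.37 to 1.40 TPM. Of 6 neuronal markers 4 did, SNAP25 rose from 9.74 to 13.8 TPM, and GAD1 was at 15.2 and 12.9 TPM without passing the threshold.

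RGS3 dominated the family in U87-MG cells. It took 72.7% of the summed TPM of the 10 members in the controls and 70.7% in the knockdown libraries, and its mean was 8.55 times that of the next member in the controls. RGS20 and RGS10 followed at 20.48 to 26.57 TPM. The values of RGS2, RGS4, RGS12 and RGS5 lay between 3.91 and 12.92 TPM, those of RGS17 between 2.20 and 3.28 TPM, and those of RGS14 between 0.64 and 2.08 TPM. RGS16 was nearly silent, at 0.04 to 0.20 TPM. In the controls the ranges of RGS20 and RGS10 overlapped, as did those of RGS2 and RGS12, and every other pair of neighbours in the order lay apart. In the knockdown libraries RGS4 moved from the sixth to the fourth place, where its range overlapped that of RGS2, and the ranges of RGS12 and RGS5 overlapped.

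**Figure D1:**
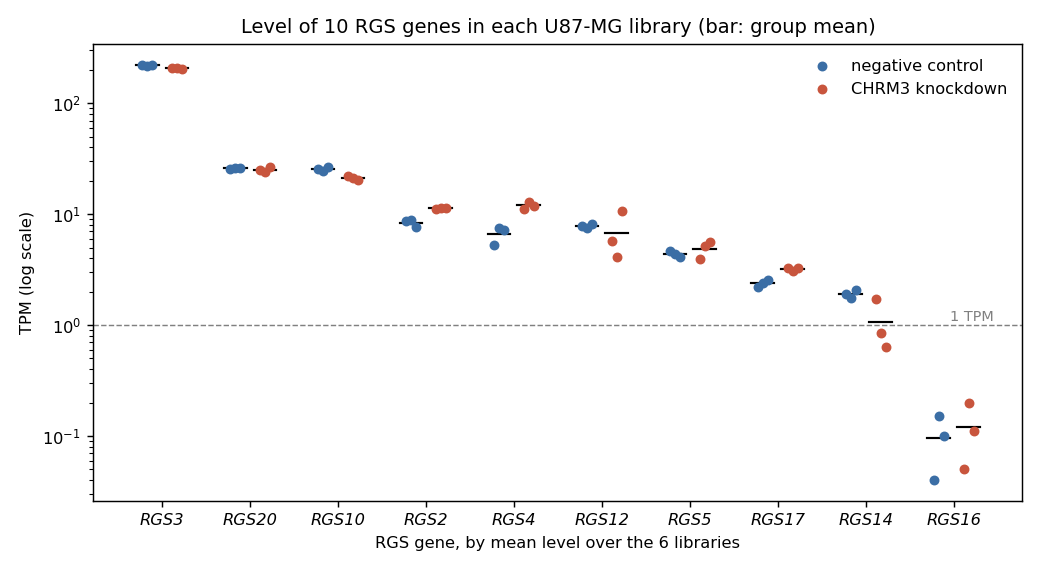
TPM of the 10 RGS genes on a log axis, with a point for each library and a bar at the mean of the 3 libraries of a group. RGS3 lies above 200 TPM in every library, RGS16 lies below 1 TPM in every library, and the knockdown points of RGS12 and RGS14 are the most scattered among the tested genes.

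Differences between the groups were tested with limma on log2(TPM + 1) across the 13722 genes whose mean over all 6 libraries reached 1 TPM, with Benjamini-Hochberg adjustment over all of them. The pseudocount makes the fold change of low genes smaller than the ratio of their TPM. This limit left 9 of the 10 members, all but RGS16. At an adjusted p under 0.05, 3 members were higher in the knockdown libraries (RGS2, RGS4 and RGS17) and 2 were lower (RGS3 and RGS10). Over all genes tested, 36.1% passed in either direction, 12.1% higher and 24.0% lower. The libraries of the groups did not overlap for 3 members that were higher and 3 that were lower (the same 5 genes and RGS14), and over all genes tested they did not overlap for 50.2%, of which 17.4% of the genes were higher and 32.8% lower. None of the members reached an absolute log2 fold change of 1 as well, which 1.87% of all genes did. The median log2 fold change of the 9 members was -0.04, beside -0.06 for all genes tested.

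**Figure D2:**
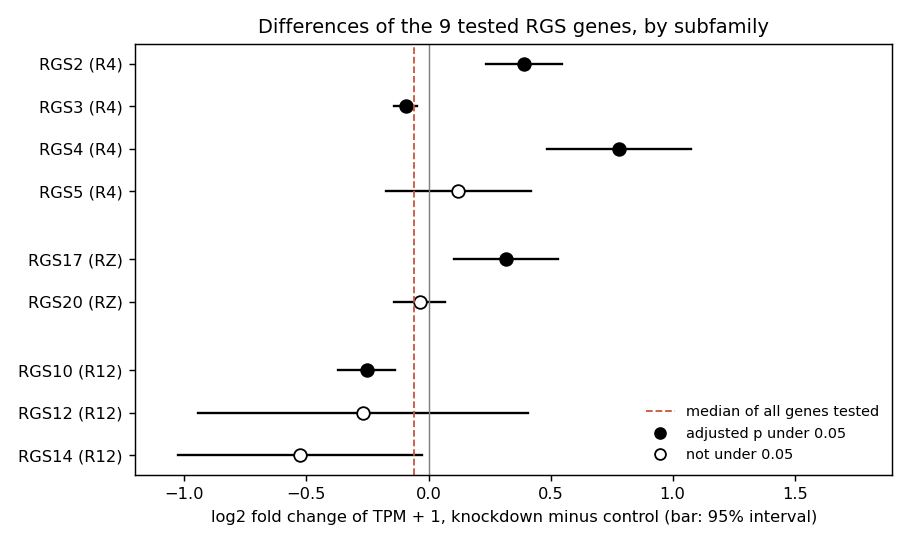
Log2 fold changes of TPM + 1, knockdown minus control, for the 9 tested RGS genes by subfamily, with limma's 95% intervals for 3 against 3 libraries. Filled points passed an adjusted p of 0.05, and the dashed line marks the median of all genes tested at -0.06. RGS4 lies farthest to the right at 0.78, the interval of RGS3 lies close to the dashed line, and the call of RGS3 and the sign of RGS20 depend on the scaling of the libraries.

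Of the R4 subfamily, RGS4 showed the largest rise of the members. RGS4 (ENSG00000117152, chromosome 1 from 163068775 to 163076802, plus strand, GRCh38) encodes a small regulator that acts on alpha subunits of the Gi and Gq classes. Its level was 5.31, 7.47 and 7.16 TPM in control replicates 1 to 3 and 11.21, 12.92 and 11.97 TPM in knockdown replicates 1 to 3. Every knockdown library lay above every control, and control replicate 1 was the lowest of all. The mean rose from 6.65 ± 1.17 to 12.03 ± 0.857 TPM (SD, n = 3 each), 81.0% above the control mean. This was a log2 fold change of 0.78 with an SE of 0.122 (adjusted p = 0.00369 by limma). In all 15 alternative fits the adjusted p of RGS4 stayed between 0.00245 and 0.0169.

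RGS2 (ENSG00000116741, chromosome 1 from 192809039 to 192812283, plus strand) is best known as an inhibitor of Gq signalling. It was measured at 8.68, 8.88 and 7.63 TPM in control replicates 1 to 3 and at 11.22, 11.32 and 11.37 TPM in knockdown replicates 1 to 3. The knockdown libraries were almost equal to each other and all lay above the controls. The control mean was 8.40 ± 0.671 TPM and the knockdown mean 11.3 ± 0.0764 TPM (SD, n = 3 each). RGS2 rose by a log2 fold change of 0.39 with an SE of 0.0651 (adjusted p = 0.00464 by limma). The adjusted p of RGS2 lay between 0.00259 and 0.0196 over the alternatives.

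RGS3, the most abundant member, encodes several isoforms, with 32 transcripts in GENCODE 29, and the table holds 1 value for the gene. The gene (ENSG00000138835) lies on chromosome 9 from 113444731 to 113597743, plus strand. Its level was 223.08, 217.47 and 222.96 TPM in control replicates 1 to 3 and 206.70, 209.13 and 206.15 TPM in knockdown replicates 1 to 3. The groups did not overlap, although the mean decreased by only 6.26%, from 221 ± 3.20 to 207 ± 1.59 TPM (SD, n = 3 each). On the log2 scale the difference was -0.09 with an SE of 0.0198 (adjusted p = 0.0124 by limma), close to the median of all genes. Scaling the libraries by the median of ratios moved that median to 0.00 and left RGS3 at -0.02 with an adjusted p of 0.382. The fall of RGS3 thus depends on the scale of the deposited TPM. On that scale its limma adjusted p was 0.0749 without the mean-variance trend and 0.0545 with a term for the replicate number.

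RGS5 (ENSG00000143248, chromosome 1 from 163111121 to 163321791, minus strand), a neighbour of RGS4 on chromosome 1, is abundant in pericytes and vascular smooth muscle. It was at 4.62, 4.38 and 4.10 TPM in control replicates 1 to 3 and at 3.91, 5.12 and 5.62 TPM in knockdown replicates 1 to 3. The knockdown libraries lay on both sides of the controls. The log2 fold change of 0.12 had a 95% interval from -0.17 to 0.42 (limma adjusted p = 0.482). It was 0.25 (adjusted p = 0.0923) without knockdown replicate 1 and 0.03 (adjusted p = 0.871) without knockdown replicate 3. A further locus on the same strand, ENSG00000232995, typed as antisense in GENCODE 29, lies across the end of RGS5 where its most upstream transcripts start. This locus was at 1.80, 2.57 and 2.56 TPM in control replicates 1 to 3 and at 1.13, 2.93 and 3.20 TPM in knockdown replicates 1 to 3, with knockdown replicate 1 the lowest there as for RGS5, and how reads were divided between them is not given in the sources used here. NUF2, a kinetochore gene on the opposite strand, also overlaps RGS5 and was at 22.8 to 25.3 TPM, and the strand setting of the counting is not stated either.

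Since RGS5 is a pericyte gene, the markers of pericytes and smooth muscle were examined beside it. Of 9 such markers 7 were tested, and 2 were higher and 1 was lower past the threshold. Their summed level ranged from 118.1 to 125.9 TPM without and from 224.2 to 234.6 TPM with the knockdown label, mainly through ACTA2, smooth muscle actin, which rose from 57.6 to 158.2 TPM. PDGFRB also rose, from 5.44 to 10.1 TPM, and CSPG4 fell from 28.9 to 24.9 TPM. MCAM, CNN1, NOTCH3 and ABCC9 did not pass the threshold. MYH11 and KCNJ8 stayed under 1 TPM in every library. The part of these genes in the level of RGS5 was not tested.

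RGS16 (ENSG00000143333), the remaining R4 member, was at 0.04, 0.15 and 0.10 TPM in control replicates 1 to 3 and at 0.05, 0.20 and 0.11 TPM in knockdown replicates 1 to 3. These values overlap and were below the limit for testing. In a fit with no limit on low values, in which 13.3% of genes passed, its log2 fold change was 0.03 with a limma adjusted p of 0.812.

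In the RZ subfamily the tested members RGS17 and RGS20 had log2 fold changes of 0.32 and -0.04. Proteins of this subfamily carry a cysteine-rich stretch near the N-terminus and act on alpha subunits of the Gi class, Gz among them. RGS17 (ENSG00000091844, chromosome 6 from 153004459 to 153131249, minus strand) was at 2.20, 2.38 and 2.57 TPM in control replicates 1 to 3 and at 3.25, 3.10 and 3.28 TPM in knockdown replicates 1 to 3. All knockdown libraries lay above the controls, and the mean went from 2.38 ± 0.185 to 3.21 ± 0.0964 TPM (SD, n = 3 each). On the log2 scale RGS17 rose by 0.32 with an SE of 0.088 (adjusted p = 0.0324 by limma). Without control replicate 1 the adjusted p was 0.0955, without control replicate 2 it was 0.0784, and without knockdown replicates 1, 2 and 3 it was 0.0849, 0.0681 and 0.0867. Its pseudogene RGS17P1 was at 0 to 0.31 TPM.

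RGS20 (ENSG00000147509) was almost constant in the controls, at 25.79, 25.92 and 25.89 TPM in replicates 1 to 3. The knockdown libraries were at 24.92, 24.20 and 26.53 TPM and lay on both sides of the controls. The log2 fold change of -0.04 had a 95% interval from -0.14 to 0.07 (limma adjusted p = 0.551), and its sign turned with another scaling of the libraries.

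The tested members of the R12 subfamily all had negative log2 fold changes, but only RGS10 passed the threshold. RGS10 (ENSG00000148908, chromosome 10 from 119499828 to 119542708, minus strand) encodes a small protein that acts on alpha subunits of the Gi class and is well known in microglia. Its level was 25.64, 24.49 and 26.57 TPM in control replicates 1 to 3 and 22.17, 21.21 and 20.48 TPM in knockdown replicates 1 to 3. All knockdown libraries lay below the controls. The control mean was 25.6 ± 1.04 TPM and the knockdown mean 21.3 ± 0.848 TPM (SD, n = 3 each). This was a log2 fold change of -0.25 with an SE of 0.0479 (adjusted p = 0.00781 by limma). The adjusted p of RGS10 lay between 0.00497 and 0.0325 over the alternatives. Of 10 leukocyte markers, 7 stayed under 1 TPM in every library, PTPRC, AIF1 and ITGAM of microglia among them. The summed level of the list was 257.9 to 262.5 TPM without and 182.7 to 190.8 TPM with the knockdown label, nearly all of it from the lysosomal gene CD68, which fell from 251 to 173 TPM. CSF1R, a receptor of microglia and macrophages, rose from 5.44 to 9.17 TPM, and CORO1A did not pass the threshold. The part of these genes in the level of RGS10 was not tested.

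RGS14 (ENSG00000169220, chromosome 5 from 177357837 to 177372601, plus strand), which joins its RGS domain to Ras-binding domains and a GoLoco motif that holds inactive alpha subunits, was low. It was at 1.92, 1.74 and 2.08 TPM in control replicates 1 to 3 and at 1.72, 0.85 and 0.64 TPM in knockdown replicates 1 to 3. The groups did not overlap, but knockdown replicate 1 lay just under the lowest control while the others were far below. The log2 fold change was -0.53, with a 95% interval from -1.03 to -0.03 and a limma adjusted p of 0.0943. Without knockdown replicate 1 it was -0.74 with an adjusted p of 0.0163. The adjusted p was 0.187, 0.148 and 0.209 without control replicates 1, 2 and 3. It was 0.215 and 0.221 without knockdown replicates 2 and 3.

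RGS12 (ENSG00000159788, chromosome 4 from 3293028 to 3439913, plus strand) has the same kinds of domain as RGS14, with a PDZ domain in its longer forms. It was steady in the controls, at 7.88, 7.53 and 8.20 TPM in replicates 1 to 3, and spread widely in the knockdown libraries, at 5.75, 4.09 and 10.60 TPM. Knockdown replicate 3 lay above all controls and the other knockdown libraries lay below them. Its log2 fold change was -0.27, with a 95% interval from -0.94 to 0.41 and a limma adjusted p of 0.499. Without knockdown replicate 3 the log2 fold change was -0.60 with an adjusted p of 0.0245, and without knockdown replicate 2 it was -0.00 with an adjusted p of 0.994. The spread of RGS12 between libraries of a group was wider than that of 95.4% of the 4375 tested genes within a factor of 2 of its level, and the gene has 26 transcripts in GENCODE 29.

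Because a change in scale moves all genes of a library alike, 4 ratios between members were also taken within each library, chosen after the values were seen. The ratio of RGS4 to RGS2 was 0.612, 0.841 and 0.938 in control replicates 1 to 3 and 0.999, 1.14 and 1.05 in knockdown replicates 1 to 3. RGS4 was thus below RGS2 in all controls and level with or above it in the knockdown libraries. The ratio of RGS4 to its neighbour RGS5 went from 1.53 ± 0.334 to 2.51 ± 0.369 (SD, n = 3 each). That of RGS10 to RGS20 went from 0.988 ± 0.041 to 0.846 ± 0.0645, and that of RGS17 to RGS20 from 0.0921 ± 0.00699 to 0.127 ± 0.00345 (SD, n = 3 each). The groups lay apart for all 4 ratios, which the choice of the pairs favoured, so no test is given.

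**Figure D3:**
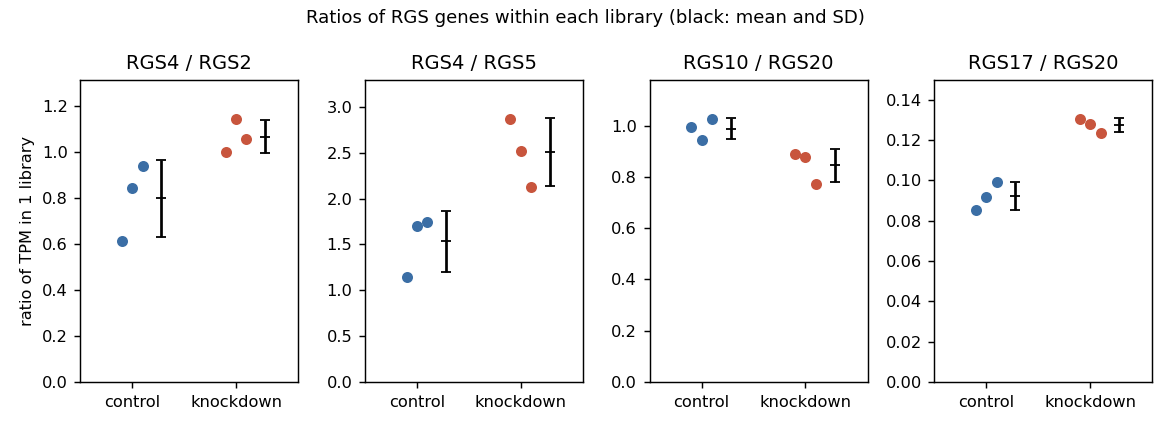
Ratio of the TPM of 2 RGS genes within each library, with the mean and SD of the 3 libraries of a group in black and axes that start at 0. The pairs were chosen after the values were seen. The ratio of RGS4 to RGS2 goes from 0.612 to 0.938 in the controls to 0.999 to 1.14 in the knockdown libraries.

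The summed TPM of the 10 members was 305.2, 300.4 and 307.3 in control replicates 1 to 3 and 290.9, 292.1 and 296.8 in knockdown replicates 1 to 3. It fell by 11.0 TPM on the scale of the deposited values and was 3.51 TPM higher in the knockdown libraries after median-of-ratios scaling, so it has no firm direction. RGS2, RGS4 and RGS17 together went from 17.4 ± 1.27 to 26.5 ± 0.832 TPM (SD, n = 3 each), or from 5.73% to 9.05% of the summed TPM of the members. RGS3 and RGS10 together went from 247 ± 4.16 to 229 ± 1.87 TPM (SD, n = 3 each), or from 81.1% to 78.0% of that sum. On the scale of the deposited values, most of the fall in the sum of RGS3 and RGS10 came from RGS3. The part of RGS3 depends on that scale, since its log2 fold change was -0.02 after median-of-ratios scaling, beside -0.19 for RGS10. These sums are descriptions, since their genes were picked by their test.

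Of 12 other genes of the RGS family, 2 reached the limit for testing, and 0 passed in the limma fit, with 0 at an unadjusted p under 0.05. RGS19, of the RZ subfamily, averaged 6.71 ± 1.22 TPM without and 7.69 ± 0.58 TPM with the knockdown label (SD, n = 3 each, adjusted p = 0.293 by limma). RGS9, of the R7 subfamily and known from photoreceptors and striatum, was at 1.31 ± 0.0252 and 0.93 ± 0.131 TPM (SD, n = 3 each), at an adjusted p of 0.16 by limma. RGS8, RGS11, RGS13, RGS21 and RGSL1 were listed at 0 in all 6 libraries.

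These other RGS genes, proteins with an RGS homology domain, G protein subunits, other regulators and partners, and N-degron enzymes made 6 lists with 83 genes. Of these genes 56 were tested and 19 passed the threshold, 6 higher and 13 lower. This share of 33.9% lay near the 36.1% of all genes. The alpha subunits are the substrates of RGS proteins, and 1 of 9 tested was higher and 2 were lower. GNAI1, of the Gi class, averaged 24.8 ± 1.09 TPM in the controls and fell to 18.5 ± 0.364 TPM (SD, n = 3 each), a difference of -0.41 on the log2 scale (adjusted p = 0.000864 by limma). GNAS, the stimulatory alpha subunit, rose from 757 ± 14.0 to 908 ± 17.9 TPM (SD, n = 3 each, adjusted p = 0.000277 by limma). GNA13 fell by 0.21 on the log2 scale (limma adjusted p = 0.0219), a call lost in 7 of 15 alternative fits, both other scalings among them. The Gq class alpha subunits GNAQ and GNA11 had log2 fold changes of -0.12 and -0.16, with limma adjusted p of 0.211 and 0.0792.

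Of the beta and gamma subunits, which form the other arm of a G protein, 1 of 11 tested was higher and 1 was lower. GNG11 fell from 109 ± 3.31 to 82.5 ± 2.03 TPM and GNG2 rose from 6.27 ± 0.37 to 8.50 ± 0.204 TPM (SD, n = 3 each), and the adjusted p by limma were 0.000292 and 0.00386. Among 12 tested regulators and partners outside the RGS family, 2 were higher and 4 were lower. RIC8A, a chaperone and exchange factor for alpha subunits, fell from 122 ± 8.38 to 96.2 ± 4.03 TPM, and GPSM1, whose GoLoco motifs hold inactive alpha subunits, rose from 3.95 ± 0.286 to 5.59 ± 0.475 TPM (SD, n = 3 each). RIC8B, a relative of RIC8A, was lower by a log2 fold change of -0.42 with a call lost in 10 of 14 alternative fits, both other scalings among them. CALM2, which encodes calmodulin, fell by 0.24 on the log2 scale.

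Among 13 tested proteins with an RGS homology domain outside the RGS genes, 2 were higher and 4 were lower, all by small amounts. SNX14 fell by 0.21 on the log2 scale (limma adjusted p = 0.00784). GRK6, a receptor kinase, and ARHGEF11, an exchange factor for RhoA, fell by 0.22 and 0.19, calls lost in 8 and 12 of 15 alternative fits, both other scalings among them, and SNX13 and SNX25 rose by 0.20 and 0.18, calls lost in 5 and 8 of 15 alternative fits. RGS4, RGS5 and RGS16 proteins are known to be destroyed through the N-degron pathway, which reads an oxidised and arginylated cysteine at their N-terminus. Of its 9 genes, all tested, 0 were higher and 2 were lower in the limma fit (1 higher and 2 lower at an unadjusted p under 0.05), and 5 had negative and 4 positive log2 fold changes. UBR4, a ubiquitin ligase that binds such N-termini, averaged 82.1 ± 0.875 TPM in the controls and fell to 62.3 ± 2.17 TPM (SD, n = 3 each), a difference of -0.39 on the log2 scale (adjusted p = 0.000287 by limma). UBE2A, a ubiquitin-conjugating enzyme, fell from 125 ± 3.77 to 105 ± 2.62 TPM. ADO, the enzyme that oxidises the cysteine, was at 17.1 and 17.4 TPM in the 2 groups, with a limma adjusted p of 0.758. RNA levels do not show the amount of RGS protein.

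**Figure D4:**
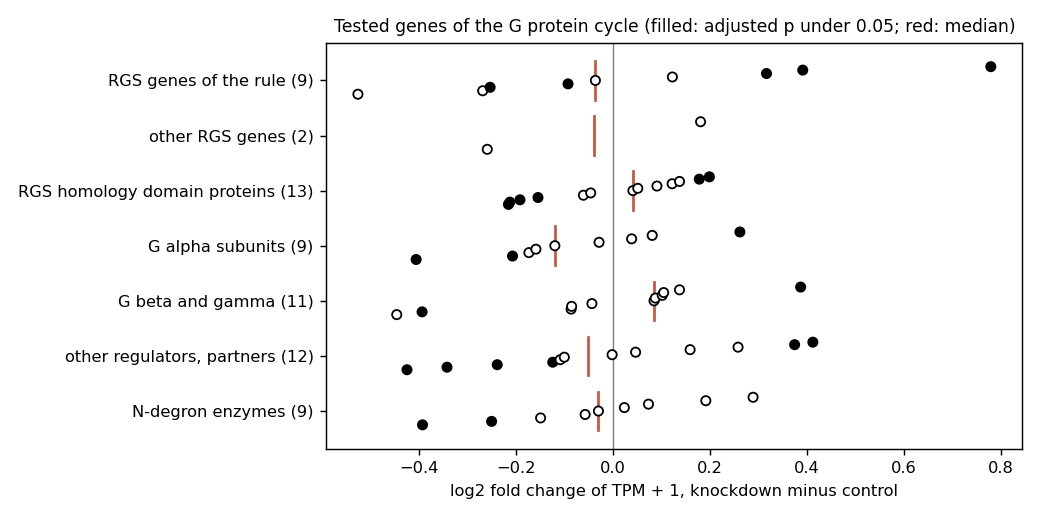
Log2 fold changes of TPM + 1, knockdown minus control, for the tested genes of the RGS rule and of the 6 lists, with a point for each gene and the number tested in parentheses. Filled points passed an adjusted p of 0.05 and red bars mark medians. Filled points lie on both sides of 0 in most lists, and RGS4 at 0.78 lies farthest from 0.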

How the data were processed

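Total RNA of U87-MG cells was sequenced in read pairs, 3 libraries labelled CHRM3 knockdown and 3 of negative control. The authors deposited TPM per gene and library, rounded to 2 decimals, in 1 table with the same total for every library. Per the labels, fastp and RSEM were used with the build GRCh38.p13, without versions. The aligner, the annotation and the strand setting are not given in the sources used here. The study names a TruSeq kit and the labels a SMARTER kit.

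Columns were matched to samples by title, and 0 were left without a sample. Of 61541 Ensembl identifiers 61369 had a symbol, and coordinates came from GENCODE 29. Read depth cannot be had from TPM. The logarithm log2(TPM + 1) entered limma 3.58.1 (R 4.3.3, lmFit and eBayes, mean-variance trend, no term but the group) for every gene that averaged 1 TPM or more, with Benjamini-Hochberg adjustment. Single values were compared by exact two-sided permutation (scipy 1.17.1). The procedure was tested on simulated data with independent normal errors for each gene and library and far fewer changed genes than were called here. Such data hold no effect of culture or scale shared across genes, so the simulation cannot speak to these. The members and lists were chosen with earlier results of these data known. From each list, up to 3 rises and 3 falls with an adjusted p under 0.05 were named, together with the members, CHRM3 and other RGS genes of at least 1 TPM. A gene that the rule covers is not reported here. GNAQ, GNA11, ADO, NUF2, RGS17P1, ENSG00000232995 and the markers were named outside this rule. Alternatives varied the pseudocount, the limit on low values, the scaling, the trend, a replicate block and the libraries included. Those for CHRM3 and those for the summed TPM other than the scaling were chosen after seeing the data.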

Additional observations from a re-analysis of the deposited data

How the results depend on the processing

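RGS2, RGS4 and RGS10 kept their direction and passed the threshold in all 15 alternative fits. The number of lower members went from 2 to 1 with median-of-ratios scaling, with quantile normalization, without the trend and with the replicate block, each time by the loss of RGS3, whose adjusted p was 0.382, 0.0899, 0.0749 and 0.0545. With a fold change limit of 1 on the log2 scale it was 0, as was the number of higher members. The number of higher members was 3, or 2 where RGS17 was lost or not tested, and its adjusted p was 0.112 with no limit on low values. RGS20 turned to 0.031 and 0.03 with median-of-ratios scaling and quantile normalization, which move the median of all genes from -0.06 to 0.00. The summed TPM of the members turned from -11.0 to 3.51 with median-of-ratios scaling, and to 2.83 for the 9 members other than RGS3. Across fits that left out each replicate in turn, 2 to 3 members were lower and 2 to 3 higher, 13 to 15 list genes and 3850 to 4210 of all genes passed, and the sum differed by -12.9 to -9.52 TPM. The CHRM3 difference was then -0.065 to -0.00167 TPM. Deviations of same-numbered libraries correlated by -0.0198, 0.0341 and 0.0334 for numbers 1, 2 and 3. Controls 2 and 3 correlated best with the knockdown library of their own number, and control 1 with knockdown 3. Correlations this small do not settle whether the numbers pair the libraries. With the replicate block, 13 list genes and 4007 genes in all passed, and RGS17 had an adjusted p of 0.0846. Rounding to 2 decimals limits RGS16 and CHRM3.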
